A study of Rattus norvegicus with 42 samples.

Results

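The transcripts described here encode the AMPA receptor of the rat hippocampus and its auxiliary proteins, and were taken as every transcript whose gene symbol was Gria1, Gria2, Gria3, Gria4, Cacng2, Cacng3, Cacng8, Cnih2 or Cnih3. These 9 genes had 13 listed RefSeq transcripts out of 15516 transcripts of 14304 genes, and all 13 passed the filter on low counts, which kept 13062 transcripts. Male Sprague Dawley pups received 1 intraperitoneal injection at P7, either of saline (vehicle, VEH), of phenobarbital (PB, 75 mg/kg) or of levetiracetam (LEV, 200 mg/kg). Hippocampi were collected 72 h later, at P10, and sequenced as bulk RNA with 1 library per animal. According to the study's methods, pups of all groups were killed with an overdose of pentobarbital, itself a barbiturate, and perfused with cold saline buffer before dissection. Whole hippocampi were used, so that levels are averages over all its cell types. After removal of the VEH animal that its label marks as excluded, 13 VEH, 14 PB and 14 LEV animals were compared. The study's methods give read coverage unlike that of the other samples as the reason for leaving out 1 control sample. Sample codes took 1 of 2 forms, for animals 1 to 6 and for animals 7 to 14 of each group, and this code series was the only batch-like label. Animals were bought in 2 orders, with 1 pup per litter in each treatment group, and the labels do not tie orders or litters to the codes.

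AMPA receptors carry most of the fast excitatory current between neurons. Each channel is an assembly of the pore-forming subunits GluA1 to GluA4, which are encoded by Gria1 to Gria4, and the edited GluA2 subunit makes the channel nearly impermeable to calcium. Transmembrane AMPA receptor regulatory proteins, among them stargazin (Cacng2), gamma-3 (Cacng3) and gamma-8 (Cacng8), and the cornichon proteins (Cnih2, Cnih3) bind the channel, aid its traffic to the synapse and slow its closing. In the first postnatal weeks the hippocampal receptor pool is being rebuilt, and GluA4 in particular is known to be a subunit of the immature hippocampus.

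The deposited values were estimated counts per transcript. Totals lay between 9499492 and 14488134 over the 41 animals, with group medians of 11712468 (VEH), 11103898 (PB) and 11338329 (LEV). A normalized count here is the rounded count scaled to a common effective library size of 11405252. Transcript lengths were not used, so values are compared between animals and never between genes. Differential expression was tested across all 13062 transcripts with edgeR's quasi-likelihood test, with the code series as a batch term and Benjamini-Hochberg adjustment, and a transcript was called when its adjusted p was under 0.05. Markers of pyramidal and granule neurons, the principal cells of the labelled tissue, were present in every library, with summed normalized counts from 22750 to 30140. Choroid plexus markers ranged from 81.5 to 84810, so the dissections differed in how much of that tissue they held. Their sums averaged 12790 ± 18710 in VEH, 23300 ± 29680 in PB and 22630 ± 23170 in LEV (SD). All 11 tested choroid plexus transcripts were above VEH after either drug, with 0 called, against 5.39% (PB) and 0.00766% (LEV) of all transcripts.

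Cnih2 was the single member called between PB and VEH. It codes for a cornichon that pyramidal neurons express strongly and that stays with the receptor at the synapse. Its transcript (NM_001025132) lies on rn6 chromosome 1 from 220474485 to 220480133. The window of 250 bases before its annotated start (RefSeq, GRCr8, chr1:211834438-211834687, minus strand) is shown because Cnih2 carried the PB call. The corresponding window of Cacng8 (GRCr8, chr1:74691004-74691253, minus strand) is shown beside it because its transcript had the strongest code series difference, in the same direction as Cnih2. Capitals mark matches to the GC box GGGCGG on either strand, which may touch each other.
Cnih2: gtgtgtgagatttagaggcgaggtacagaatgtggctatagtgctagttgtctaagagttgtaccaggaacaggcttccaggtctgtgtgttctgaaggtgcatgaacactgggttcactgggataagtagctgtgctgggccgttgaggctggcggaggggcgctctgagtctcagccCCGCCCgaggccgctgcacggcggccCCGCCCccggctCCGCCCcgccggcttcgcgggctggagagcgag
Cacng8: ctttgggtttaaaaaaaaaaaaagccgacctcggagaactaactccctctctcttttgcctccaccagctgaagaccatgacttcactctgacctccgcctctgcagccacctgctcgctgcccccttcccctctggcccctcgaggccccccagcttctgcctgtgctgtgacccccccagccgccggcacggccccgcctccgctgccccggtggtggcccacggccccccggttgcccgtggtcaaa

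The Cnih2 window held 3 GC boxes and the Cacng8 window held 0. Over all 33469 rat promoter windows of this length, 30.5% held at least 1 GC box. The cyclic AMP response element TGACGTCA was searched on both strands and was in neither window, and 1.59% of all windows held it. The GC content was 62.8% for Cnih2 and 64.8% for Cacng8, against a median of 51.2% over all windows. The RefSeq table used here matched 6 of the 9 genes, and Gria1, Gria2 and Gria3 were not among them. These matches are a description of the sequence.

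Among the 13 VEH animals the normalized count of Cnih2 was 10220 at the lowest, 12400 at the median and 14000 at the highest. In the 14 PB animals the same values were 9072, 11310 and 13230, and in the 14 LEV animals they were 9503, 11580 and 14340. The 3 groups overlapped over most of their range, while 13 of 14 PB animals lay under the VEH average for their code series. Cnih2 fell after PB by 0.16 on the log2 scale (SE 0.047, 95% interval -0.25 to -0.060, edgeR adjusted p = 0.0423), from a mean of 12430 ± 1243 (SD, n = 13) to 11150 ± 1263 (SD, n = 14). This was within the fold limit used here, an absolute log2 fold change of 0.32. After LEV the log2 fold change was -0.092 (SE 0.047, adjusted p = 0.844), with 12 of 14 LEV animals under the VEH average for their series. The difference between PB and LEV was -0.063 (SE 0.046, 95% interval -0.16 to 0.030, adjusted p = 0.477).

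The Cnih2 call was close to the threshold and was made in 8 of 17 alternative fits. It was lost, with effects from -0.16 to -0.14, with no batch term, with the animal number as replicate block, with only the 2 groups compared and with all 14 VEH animals. Within animals 1 to 6 the PB effect was -0.081 (SE 0.070, adjusted p = 0.758), and within animals 7 to 14 it was -0.21 (SE 0.063, adjusted p = 0.0342) in a model with a separate effect per series. The difference of these effects had an adjusted p of 0.646. When the animals were left out singly, the call was lost without VEH animals 3, 4, 5, 8, 9, 11 or 13 or without PB animals 1, 3, 4, 6, 7, 9, 10 or 11, with log2 fold changes from -0.17 to -0.13 and adjusted p from 0.0261 to 0.0930 over the 41 fits. Summed markers of pyramidal and granule neurons moved in the same direction, from 27350 ± 1468 in VEH (range 24840 to 30140) to 25480 ± 1194 in PB (range 23150 to 27280) and 26720 ± 1833 in LEV (range 22750 to 30070), with 2 of 13 marker transcripts called lower after PB, both of Fibcd1. With that level as a covariate, an alternative chosen after seeing the data, the Cnih2 effect was -0.059 (adjusted p = 0.606). With interneuron markers, whose summed level was also lower in PB than in VEH animals, it was -0.22 (edgeR adjusted p = 0.0996). That effect was larger than without a covariate, and its unadjusted p was 0.00072 against 0.0020. Of all transcripts 0.214% were called with interneuron markers and 0.72% with pyramidal and granule neuron markers, against 5.39% without a covariate. With choroid plexus markers the Cnih2 effect was -0.15 (adjusted p = 0.0593) and with oligodendrocyte markers -0.16 (adjusted p = 0.0369). In bulk tissue, fewer cells of a type and less RNA per cell cannot be told apart.

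Taken over all members, 1 of 13 transcripts (Cnih2, lower) was called between PB and VEH, where 5.39% of all tested transcripts were called, 3.46% lower. None of the 13 also passed the fold limit, which 0.605% of all transcripts did. The log2 fold change was under 0 for 11 of the 13, with a median of -0.10, against 6277 of 13062 and a median of 0.0046 over all tested transcripts. At an unadjusted p under 0.05 there were 5 members, 4 lower and 1 higher, where 20.2% of all transcripts reached that level, 10.4% lower and 9.79% higher. Between LEV and VEH 0 of 13 members were called by edgeR, by DESeq2 also 0, and 0.00766% of all transcripts were called, with 3 members at an unadjusted p under 0.05 (background 5.84%). Between PB and LEV 1 of 13 members was called, a Gria3 transcript that was lower after PB, against 4.45% of all transcripts, 2.78% lower. At an unadjusted p under 0.05 there were 3 members in that comparison, all lower after PB (Gria3 NM_001112742, Cacng3 and Cacng8), against 19.6% of all transcripts, 10.2% lower. The PB and LEV comparisons with VEH share the same 13 VEH animals.

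**Figure D1:**
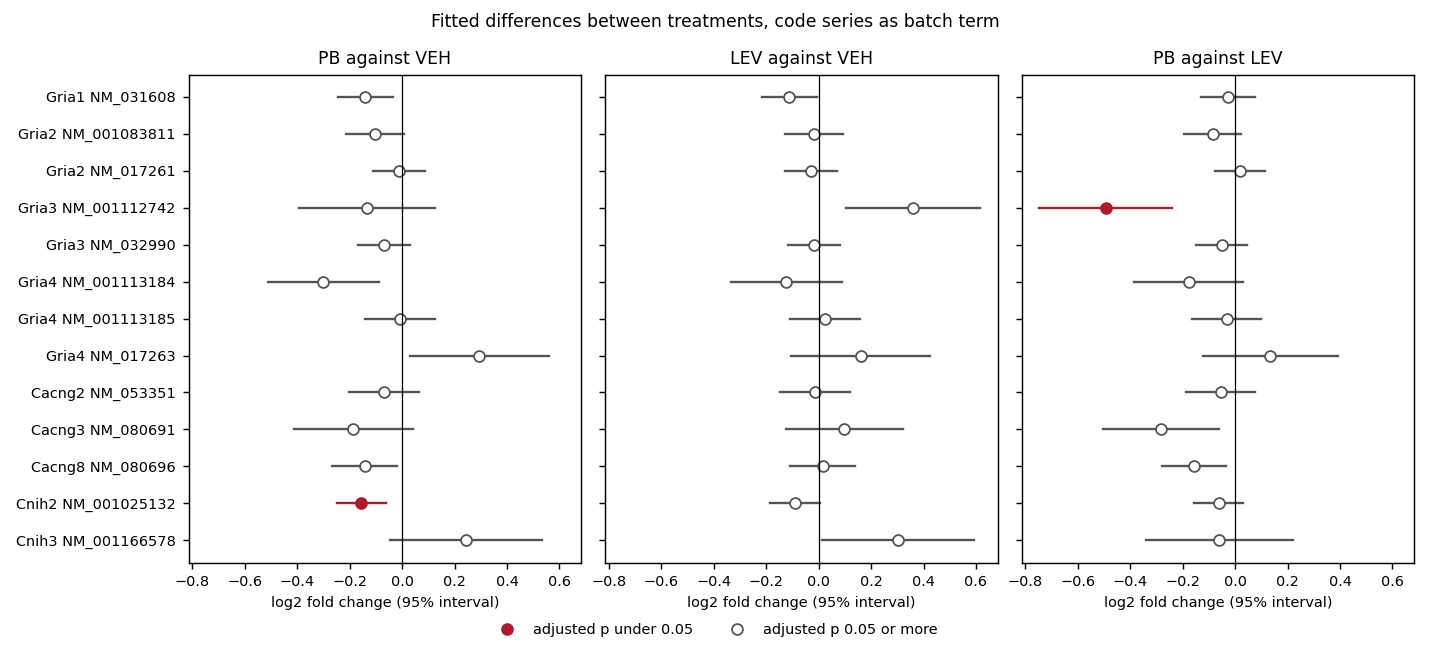
Fitted log2 fold changes of the 13 member transcripts in the 3 comparisons, with 95% intervals as lines and the code series as batch term. Filled red points had an adjusted p under 0.05 and were Cnih2 between PB and VEH (-0.16) and Gria3 NM_001112742 between PB and LEV (-0.49).

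Of the pore-forming subunits, Gria1 (NM_031608, rn6 chromosome 10, 42441723 to 42760201) encodes GluA1, the subunit whose phosphorylation and insertion accompany long-term potentiation. Its normalized count was 2581 to 3691 in VEH (median 3259), 2577 to 3736 in PB (median 2981) and 2502 to 3500 in LEV (median 3094). The 3 ranges were almost the same, and the PB values were mostly in the lower part, with 12 of 14 PB animals under the VEH average for their series. The log2 fold change was -0.14 after PB (SE 0.052, adjusted p = 0.104) and -0.11 after LEV (SE 0.052, adjusted p = 0.827), neither of which passed the test. The PB difference was called without VEH animal 9 (-0.17, adjusted p = 0.0264), the largest change from leaving out 1 animal, and also without PB animal 12. It was called in 1 of 17 other fits, the one with batch effects subtracted before DESeq2 (adjusted p = 0.0296). Within animals 1 to 6, Gria1 was lower after LEV by a log2 fold change of -0.27 (SE 0.072, adjusted p = 0.0476), with means of 2761 ± 223 against 3322 ± 256 in VEH (SD, n = 6 each). Within animals 7 to 14 the LEV effect was 0.014 (SE 0.065, adjusted p = 0.981), and the difference between these LEV effects was 0.28 (SE 0.097, unadjusted p = 0.0062, adjusted p = 0.166 with edgeR), which did not pass the test.

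Gria2 encodes GluA2, the subunit that sets calcium permeability, and 2 transcripts over the same locus were listed (rn6 chromosome 2, 179584306 to 179704630). Their counts were not whole in 97.6% of libraries before rounding, as the E/M counting divides reads that both transcripts share. The more abundant transcript within the gene, NM_017261, ranged from 6011 to 8678 in VEH, from 6247 to 8285 in PB and from 6118 to 8282 in LEV. Its medians of 7353, 7347 and 7372 were nearly equal, with fitted differences of -0.012 after PB (95% interval -0.11 to 0.087) and -0.030 after LEV (95% interval -0.13 to 0.069). NM_001083811 had medians of 3501 (VEH), 3167 (PB) and 3272 (LEV) and log2 fold changes of -0.10 (adjusted p = 0.287) and -0.017 (adjusted p = 0.989). With both summed, Gria2 differed between PB and VEH by -0.040 (95% interval -0.12 to 0.042), which as a change in level spans 8.04% lower to 2.96% higher. The log2 ratio of Gria1 to summed Gria2 counts, a within-library quantity that cancels depth, was -1.73 ± 0.148 in VEH, -1.83 ± 0.117 in PB and -1.81 ± 0.102 in LEV (SD, n = 13, 14 and 14), differences within 1 SD of the VEH animals. In animals 1 to 6 the means were -1.66 ± 0.108, -1.87 ± 0.118 and -1.85 ± 0.082, and in animals 7 to 14 they were -1.79, -1.79 and -1.78, with no test made of this ratio.

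Gria3 encodes GluA3, which pairs with GluA2 in many adult hippocampal receptors. It lies on the X chromosome (rn6, 127562660 to 127829764), and its 2 transcripts are described in turn. The minor transcript NM_001112742 had normalized counts of 134.2 at the lowest, 274.3 at the median and 415.2 at the highest in VEH. In PB these were 160.3, 252.4 and 381.5, and in LEV 238.9, 358.0 and 453.1. The LEV animals were the high group, although their range still overlapped with both others. NM_001112742 was lower after PB than after LEV by a log2 fold change of -0.49 (SE 0.125, 95% interval -0.75 to -0.24, edgeR adjusted p = 0.0177), in 13 of 14 PB animals against the LEV mean of their series, and this passed the fold limit, as 0.582% of all transcripts did in that comparison.

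Against VEH, neither drug reached the threshold for NM_001112742. The log2 fold change was 0.36 after LEV (SE 0.127, unadjusted p = 0.0069, adjusted p = 0.680), with 13 of 14 LEV animals over the VEH average for their series, and -0.13 after PB (SE 0.128, adjusted p = 0.608). The PB to LEV difference was called in each of the 41 fits that left out 1 animal, from -0.55 to -0.45 with adjusted p up to 0.0378. Within animals 1 to 6 alone it was -0.51 (adjusted p = 0.117) and within animals 7 to 14 alone -0.48 (adjusted p = 0.197), so that the size held in both series without passing the test in either. The call was also lost with the excluded VEH animal added (adjusted p = 0.0602) and with pyramidal and granule neuron (-0.50, adjusted p = 0.0525) or interneuron markers (-0.47, adjusted p = 0.176) as a covariate, chosen after seeing the data. In these 3 fits 1.33%, 0.834% and 0.0766% of all transcripts were called, against 4.45% in the fit that made the call. With either covariate the estimate stayed near the -0.49 of that fit. Interneuron markers summed to 12550 ± 991 in VEH (range 9846 to 13730), 10870 ± 1043 in PB (range 9201 to 12780) and 12340 ± 423 in LEV (range 11870 to 13400), with 3 of 11 transcripts called lower after PB against VEH and 5 of 11 against LEV. Oligodendrocyte markers were lower after PB than after LEV in 13 of 13 transcripts (2 called, median -0.50), with sums of 13450 ± 4537 in PB, 16570 ± 3667 in LEV and 13000 ± 4188 in VEH, and with their level as a covariate the Gria3 difference was -0.55 (adjusted p = 0.0232). Of the skeletal muscle markers 4 of 18 transcripts were tested, and 3 were called lower after PB than after LEV (median -1.20), with sums of 183.1 in PB and 302.3 in LEV. Most of this lay in animals 1 to 6, with means of 196.2 in PB, 450.9 in LEV and 437.9 in VEH. In animals 7 to 14 the means were 173.4, 190.8 and 179.1. The part of the muscle markers in the Gria3 result was not tested.

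The major transcript NM_032990 varied little, at 1726 to 2373 in VEH (median 1995), 1409 to 2168 in PB (median 1988) and 1769 to 2261 in LEV (median 1992). Its log2 fold changes were -0.069 after PB (adjusted p = 0.465) and -0.017 after LEV (adjusted p = 0.989). As a share of the gene, NM_001112742 made up 12.0% ± 2.74 of Gria3 counts in VEH (SD, n = 13), 11.7% ± 3.37 in PB (n = 14) and 15.2% ± 2.13 in LEV (n = 14). Treatment labels were permuted within each code series (two-sided permutation test, 100000 resamples), for 15 comparisons of shares in all, to which the adjusted values below refer. These covered Gria2, Gria3 and Gria4 only, so no background from other genes can be set beside the calls. They also overlap, since the pairs of groups reuse the same animals. The share was 3.14 percentage points higher after LEV than after VEH (p = 0.0025, adjusted p = 0.0311), in 13 of 14 LEV animals, and PB minus LEV was -3.45 points (p = 0.0041, adjusted p = 0.0311), in 12 of 14 PB animals. Both calls were lost without LEV animal 1 (2.83 and -3.13 points) or LEV animal 12 (2.89 and -3.22 points), and the second also without PB animals 5, 6, 7, 9 or 10 (-3.28 to -3.12 points). With animals 1 to 6 alone the shares differed by 1.69 and -2.54 points, and with animals 7 to 14 alone by 4.31 and -4.14 points, with no adjusted p under 0.05 in either. With both transcripts summed, Gria3 differed between PB and LEV by -0.11 (edgeR adjusted p = 0.149). In that comparison 0 of the 9 genes were called on sums, where 4.79% of all genes were. Between PB and VEH, Cnih2 was also called on sums (adjusted p = 0.0404), where 6.02% of all genes were. Since the counts of both transcripts are estimates that divide shared reads, a change of share also depends on how the reads were assigned.

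**Figure D2:**
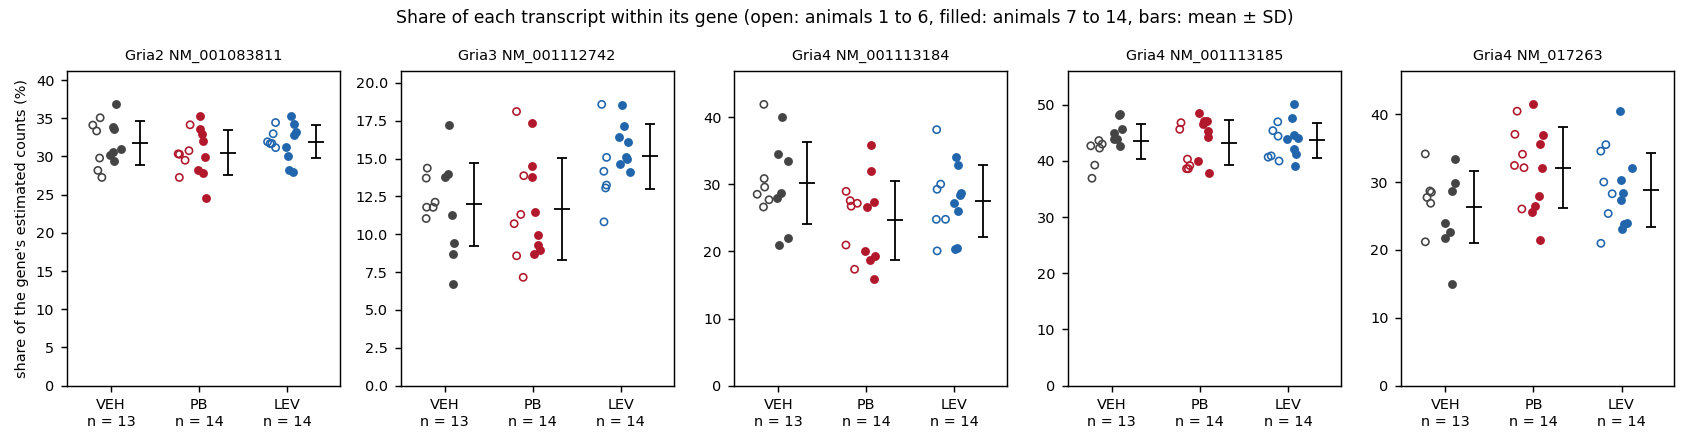
Share of each transcript in the estimated counts of its gene (percent, y axis) in every animal of the 3 groups, with animals 1 to 6 open, animals 7 to 14 filled and bars for the mean ± SD. The Gria3 NM_001112742 share averaged 15.2% in LEV against 12.0% in VEH and 11.7% in PB, and the Gria4 NM_017263 share averaged 32.1% in PB against 26.3% in VEH.

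Gria4 encodes GluA4, the subunit of the young hippocampus that later is found mainly in interneurons. It had 3 listed transcripts on rn6 chromosome 8, with NM_001113184 and NM_017263 from 1548145 to 2045818 and the shorter-spanning NM_001113185 from 1609204 to 2045818. NM_001113184 had a normalized count of 244.5 at the lowest, 303.6 at the median and 459.2 at the highest in VEH, 186.8, 269.7 and 389.9 in PB, and 227.9, 283.7 and 435.2 in LEV. NM_017263 had 159.8, 294.2 and 424.1 in VEH, 216.5, 374.2 and 478.2 in PB, and 174.5, 303.2 and 532.8 in LEV. The PB animals thus tended to be low for the one and high for the other, with wide overlap between groups.

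Neither passed the test, with log2 fold changes after PB of -0.30 for NM_001113184 (SE 0.105, unadjusted p = 0.0065, adjusted p = 0.0821, 12 of 14 PB animals under the VEH average for their series) and of 0.29 for NM_017263 (SE 0.131, unadjusted p = 0.0299, adjusted p = 0.189, 11 of 14 above). The third, NM_001113185, was at medians of 457.7, 464.8 and 499.1 in VEH, PB and LEV, with a PB effect of -0.0086 (95% interval -0.14 to 0.13). Summed over its transcripts, Gria4 was level, at 1096 ± 108 in VEH, 1097 ± 76.9 in PB and 1112 ± 143 in LEV (SD, n = 13, 14 and 14), and the PB effect on the sum was 0.0012 (95% interval -0.10 to 0.11). In shares, NM_001113184 went from 30.2% ± 6.09 in VEH to 24.6% ± 5.92 in PB, a difference of -5.55 points (p = 0.0274 by permutation test, adjusted p = 0.103), and NM_017263 from 26.3% ± 5.29 to 32.1% ± 5.97, a difference of 5.88 points (p = 0.0122 by permutation test, adjusted p = 0.0611). Within animals 1 to 6 alone these differences were -6.08 and 5.84 points and within animals 7 to 14 alone -5.13 and 5.92 points. Neither share passed the threshold with all 41 animals, although the NM_017263 share did so without 1 of VEH animals 3, 10 or 11 or PB animals 2, 8, 11 or 12 (up to 6.64 points). NM_001113184 was also called when batch effects were subtracted before DESeq2 (-0.30, adjusted p = 0.0442) and by edgeR without PB animal 12 (-0.35, adjusted p = 0.0330), and its share was called without PB animal 12 (-6.43 points) or VEH animal 10 (-6.34 points).

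**Figure D3:**
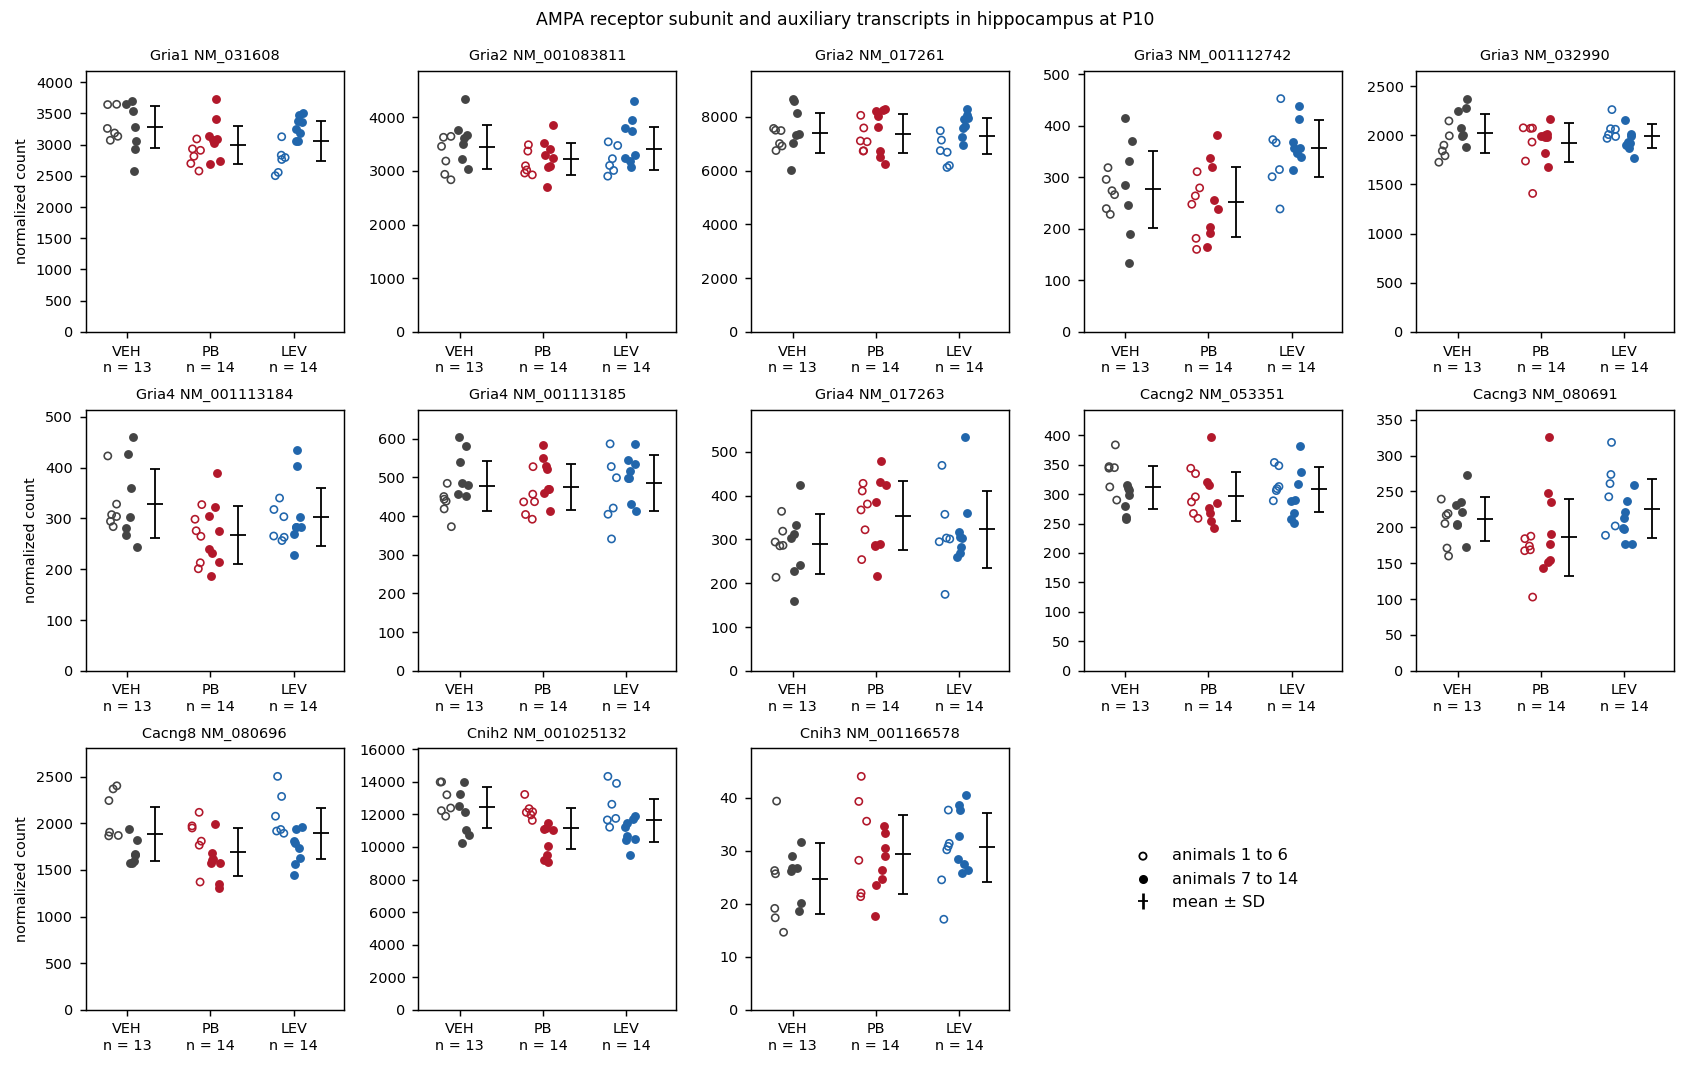
Normalized counts (y axis, each from 0) of the 13 member transcripts in every animal of the VEH, PB and LEV groups, with animals 1 to 6 open, animals 7 to 14 filled and bars for the mean ± SD. All groups overlap in every panel, the LEV animals sit highest for Gria3 NM_001112742 (median 358.0), and filled points tend to lie below open points for Cacng8 and Cnih2.

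The transmembrane regulatory proteins gave no call for either drug. Cacng8 (NM_080696, rn6 chromosome 1, 64330106 to 64350339) encodes gamma-8, the regulatory protein most enriched in hippocampus. Its normalized count was 1576 to 2403 in VEH (median 1866), 1307 to 2119 in PB (median 1651) and 1448 to 2505 in LEV (median 1906). The PB animals reached lower values than either other group, and 12 of 14 lay under the VEH average for their series. The log2 fold change was -0.14 after PB (SE 0.062, adjusted p = 0.176) and 0.016 after LEV (SE 0.062, adjusted p = 0.989), and PB differed from LEV by -0.16 (SE 0.061, adjusted p = 0.124). With the pyramidal and granule neuron markers as a covariate the PB effect on Cacng8 was 0.014 (adjusted p = 0.942).

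Cacng3 (NM_080691, rn6 chromosome 1, 192613766 to 192708372) encodes gamma-3, a regulatory protein of forebrain neurons. Its normalized count ranged from 159.9 to 272.9 in VEH, from 102.8 to 325.2 in PB and from 176.1 to 318.3 in LEV, with medians of 216.9, 175.0 and 217.6. The PB group held both the lowest and the highest animal. The log2 fold changes were -0.19 after PB (SE 0.112, adjusted p = 0.368), 0.098 after LEV (SE 0.111, adjusted p = 0.953) and -0.28 between PB and LEV (SE 0.110, adjusted p = 0.129). Without PB animal 9, the highest, the PB to LEV difference was -0.36 and was called (adjusted p = 0.0294). With batch effects subtracted before DESeq2 that difference was also called (adjusted p = 0.0250), in 1 of 17 other fits. Cacng2 (NM_053351, rn6 chromosome 7, 119229268 to 119352034) encodes stargazin, the protein lost in the stargazer mouse. It ranged from 257.5 to 383.5 in VEH, 243.1 to 396.1 in PB and 251.1 to 380.9 in LEV, which overlapped almost completely, with log2 fold changes of -0.069 after PB (95% interval -0.20 to 0.065) and -0.014 after LEV (95% interval -0.15 to 0.12).

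Cnih3 (NM_001166578, rn6 chromosome 13, 99663150 to 99770626), the second cornichon, had few counts. Normalized counts were 14.6 to 39.4 in VEH (median 26.2), 17.7 to 44.0 in PB (median 28.6) and 17.1 to 40.5 in LEV (median 30.5). The log2 fold change was 0.24 after PB (SE 0.144, adjusted p = 0.356) and 0.30 after LEV (SE 0.144, adjusted p = 0.837), and 13 of 14 LEV animals lay over the VEH average for their series. At this depth the 95% interval for LEV ran from 0.893% to 50.8% higher, so that small and large differences could not be told apart. Whether its PB effect differed from that of Cnih2 was not tested.

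More members were called between the code series than between treatments. Between animals 7 to 14 and animals 1 to 6, 6 of 13 members were called, where 30.2% of all tested transcripts were called, 15.2% lower and 15.1% higher. None of the 6 passed the fold limit, which 4.12% of all transcripts passed. Cacng8 was lower in animals 7 to 14 by a log2 fold change of -0.27 (SE 0.050, adjusted p = 6.8e-05), with means of 1693 against 2110 in VEH, 1588 against 1832 in PB and 1734 against 2103 in LEV. Cnih2 was lower by -0.19 (SE 0.038, adjusted p = 0.00019), with means of 11980 against 12950, 10330 against 12250 and 10930 against 12580. The direction was the same in all 3 treatments for both genes. Gria1 (0.12, adjusted p = 0.0291), Gria2 NM_017261 (0.11, adjusted p = 0.0348), Gria2 NM_001083811 (0.11, adjusted p = 0.0472) and Gria4 NM_001113185 (0.18, adjusted p = 0.0111) were higher in animals 7 to 14. For Gria1 the VEH means went the other way (3322 in animals 1 to 6 and 3249 in animals 7 to 14), and the difference lay in PB (2836 and 3114) and LEV (2761 and 3281), while for the Gria2 and Gria4 transcripts all 3 treatments had the higher mean in animals 7 to 14. Without LEV animal 5, or without LEV animal 6, 3 of 13 were called. What the label stands for is not given in the sources used here. The PB effect differed between the series for 0 members by edgeR (0.0689% of all transcripts were called), and 0 members had an unadjusted p under 0.05 (11.1% of all transcripts). The LEV effect differed for 0 members by edgeR (0.842% of all transcripts), with Gria1 and Gria3 NM_032990 at an unadjusted p of 0.0062 and 0.0147 (12.8% of all transcripts were under 0.05).

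A list of 49 other genes of the AMPA receptor pathway, covering further auxiliary proteins, scaffolds, kinases, phosphatases and traffic proteins, was described in the same way. It had 55 listed transcripts of 45 genes, all of which were tested. After PB 10 of 55 were called lower and 0 higher, against 3.46% and 1.93% of all transcripts, none passed the fold limit, and the median log2 fold change was -0.076. They included Camk2a and 1 of 3 listed Camk2b transcripts, which code for subunits of calcium/calmodulin-dependent kinase II, a kinase that phosphorylates GluA1. Camk2a fell by 0.26 (SE 0.077, adjusted p = 0.0364) from 5657 ± 831 to 4789 ± 879, and Camk2b NM_021739 fell by 0.19 (SE 0.044, adjusted p = 0.0060) from 14560 ± 896 to 12730 ± 1254. Another Camk2b transcript, NM_001042356, went the other way, with a log2 fold change of 0.12 (adjusted p = 0.228) that did not pass the test. Counts of Camk2b transcripts are estimates too, and a sum over them is not reported here. Ppp3ca, the catalytic subunit of calcineurin, fell by 0.13 (adjusted p = 0.0340).

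The traffic proteins on the list also had calls. Nsf, the ATPase that binds the GluA2 tail, fell by 0.20 (SE 0.043, adjusted p = 0.0039) from 5400 ± 394 to 4690 ± 454. Ap2m1, the adaptor subunit for endocytosis, fell by 0.13 (adjusted p = 0.0213) and lay under the VEH average for the series in 14 of 14 PB animals, as was Nptxr, the neuronal pentraxin receptor that clusters AMPA receptors, which fell by 0.15 (adjusted p = 0.0145). Epb41l1, which links GluA1 to the cytoskeleton, fell by 0.11 (adjusted p = 0.0046), Porcn, a component of native receptor complexes, fell by 0.19 (adjusted p = 0.0036), and Prrt2, another such component, fell by 0.14 (adjusted p = 0.0155). With pyramidal and granule neuron markers as a covariate 0 of 55 were called (median -0.027, and 0.72% of all transcripts called), and with interneuron markers 2 of 55 (median -0.026, and 0.214% of all). Within animals 1 to 6 alone 1 was called (median -0.076, and 0.488% of all) and within animals 7 to 14 alone 4 (median -0.077, and 4.09% of all). Calls over all transcripts were thus also fewer in these 4 fits than the 5.39% of the fit on all animals.

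After LEV 0 of 55 were called by edgeR, where 0.00766% of all transcripts were, and 5 had an unadjusted p under 0.05 (5.84% of all transcripts). Between PB and LEV 7 were called, 6 lower and 1 higher, against 2.78% and 1.67% of all transcripts. Among these, Prrt2 (-0.18, adjusted p = 0.0018), Camk2b NM_021739 (-0.20, adjusted p = 0.0052), Nsf (-0.20, adjusted p = 0.0059), the scaffold Grasp (-0.26, adjusted p = 0.0334) and the activity-regulated gene Arc (-0.27, adjusted p = 0.0485) were lower after PB. A second Camk2b transcript, NM_001042356, was higher after PB (0.18, adjusted p = 0.0433). The other ionotropic glutamate receptors gave few calls. Of 15 NMDA receptor transcripts, 0 were called for PB against VEH (3 at an unadjusted p under 0.05, median -0.078) and 0 for LEV (1, median -0.012). For PB against LEV 1 was called, lower and past the fold limit, with a median of 0.0455 over the 15. The study's own DESeq2 comparison on batch-normalized values lists Grin2b, an NMDA receptor gene, as lower after LEV. Of 8 kainate receptor transcripts, 0 were called in any of the 3 comparisons, with medians of 0.0023, -0.017 and 0.064 and with 2, 0 and 1 at an unadjusted p under 0.05. Over all transcripts 5.39%, 0.00766% and 4.45% were called in these comparisons, and 20.2%, 5.84% and 19.6% had an unadjusted p under 0.05.

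Members varied together in part. Here and in the matches below, Gria2, Gria3 and Gria4 stand for their most abundant transcripts, NM_017261, NM_032990 and NM_001113185. The Gria3 transcript called between PB and LEV was not used. After subtraction of the mean of each treatment within each series, log2 levels of Gria1 and Cacng8 had a Pearson r of 0.610 over the 41 animals, Cacng8 and Cnih2 of 0.567, and Gria3 and Cacng3 of 0.652, while Gria4 and Cnih2 had -0.549. These values are descriptions, and all points share library depth and dissection. The level of pyramidal and granule neuron markers went with Cacng8 (r = 0.824), Cnih2 (0.661), Cacng2 (0.637) and Gria1 (0.614), and less with Gria2 (0.120), Gria3 (0.105) and Cnih3 (0.051), and inversely with Gria4 (-0.346). The transcripts of other genes most like Gria1 were Dgkg (0.818), Nptx1 (0.810) and Slc24a2 (0.794), and those most like Cnih2 were Nell2 (0.831), Tafa5 (0.830) and Lrrn2 (0.826). For Cacng8 they included Syt12 (0.856) and Ptk2b (0.853), and for Gria3 they included Adcy2 (0.849) and Oxct1 (0.823).

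For Gria2 the closest were Nfib (0.812), Zeb2 (0.796) and Elk4 (0.789), and for Gria4 Klf6 (0.740), Mapk8 (0.725) and Ccn2 (0.695). Cacng3 varied most like Sidt1 (0.818), R3hdm2 (0.802) and Wfs1 (0.791), and Cacng2 most like Sstr3 (0.771), Cltb (0.723) and Jph4 (0.701). Cnih3, with its low counts, had no close match, its highest being Cdkn3 (0.581), Rgs7 (0.520) and Sgo2 (0.500). No gene was listed for more than 1 member.

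**Figure D4:**
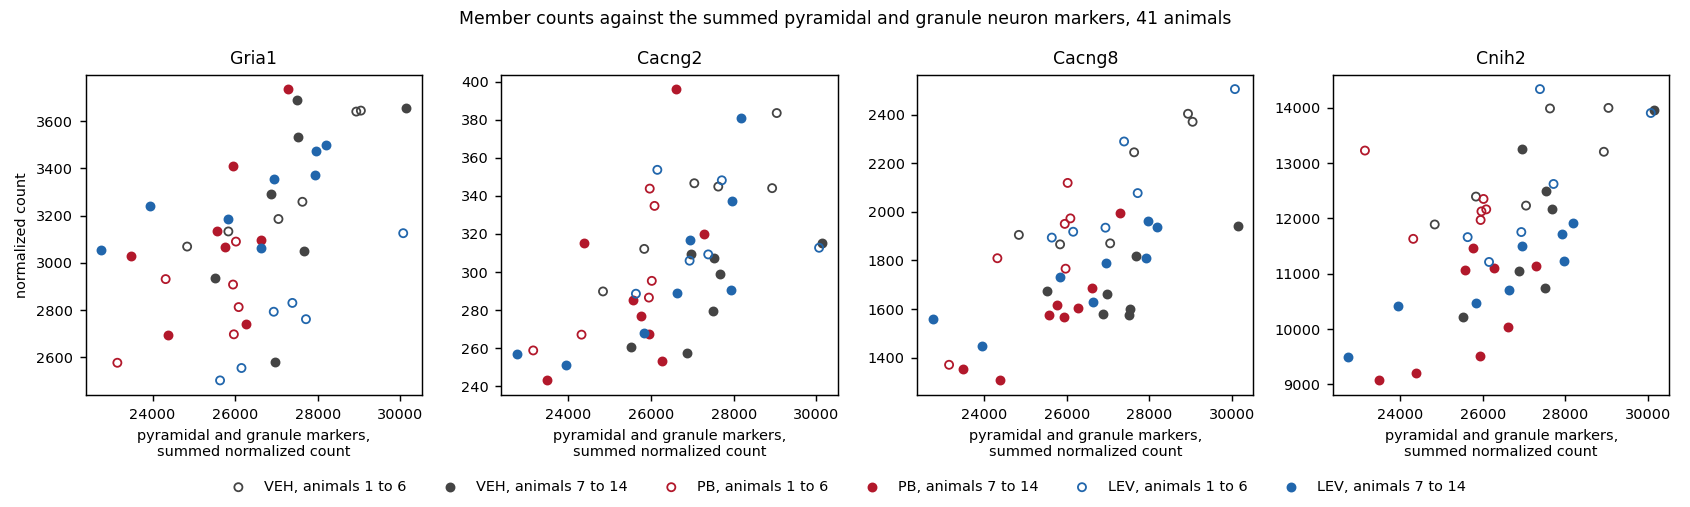
Normalized counts of Gria1, Cacng2, Cacng8 and Cnih2 (y axes, not from 0) against the summed normalized count of pyramidal and granule neuron markers (x axis), 1 point per animal. PB animals (red) tend to lie to the left, with a mean marker level of 25480 against 27350 in VEH, and within each colour points tend to rise to the right.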

How the data were processed

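Hippocampal RNA of 42 rat pups was sequenced, and 41 were compared (13 VEH, 14 PB, 14 LEV), grouped by the labels. Per the labels and the study's methods, the authors aligned reads to rn6 with STAR 2.7.3a and used the E/M method of Partek to quantify RefSeq transcripts, and the deposited values are estimated counts before normalization. A further deposited table of the authors' own DESeq2 comparisons (p values, fold changes, group means) was not used. Of the estimated counts, 13.7% were not whole, and all were rounded. In R 4.3.3 with edgeR 4.0.16, TMM normalization and filterByExpr were followed by glmQLFit and glmQLFTest on treatment plus code series, with Benjamini-Hochberg adjustment over 13062 transcripts. The 9 members and all gene lists were chosen with earlier results of these data known. Members were all named. Genes of the pathway list were named where called, at most 10 per comparison, and the 3 most correlated transcripts per member gene were named. Some genes that this rule names are not reported here. Transcript shares were compared by permutation in numpy 2.4.6. The promoter sequences are from RefSeq (GRCr8), a different build from rn6. The tests were tried on simulated data. The alternatives were DESeq2 1.42.0 with 2 settings, its size factors in edgeR, no filter or a mean of at least 50 counts, no batch term, subtraction of batch effects, the animal number as block, all 14 VEH animals, 2 groups only, each series alone, a robust fit, gene sums, marker levels as covariates and each animal left out. The neuron and oligodendrocyte covariates were chosen after seeing the data. Totals of 9499492 to 14488134 counts set the precision, which the standard errors give.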

Additional observations from a re-analysis of the deposited data

Results flagged for a closer look

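In 78 sets of animals, each a member transcript in 1 treatment of 1 code series (6 to 8 animals), 4 had an animal that stood far from the others, about the 1 in 20 that chance gives. Gria3 NM_032990 was at 2262 in LEV animal 5, against 1969 to 2067 in the other animals of its set. Gria4 NM_001113184 was at 422.9 in VEH animal 5, against 283.7 to 328.0. Gria4 NM_017263 was at 532.9 in LEV animal 8, against 260.0 to 359.9. Cacng3 was at 102.8 in PB animal 2, against 167.4 to 187.6.

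The VEH animal that its label marks as excluded entered no comparison, and 4 of its 13 member transcripts were above the range of the other 13 VEH animals when scaled with them. Gria1 was at 4543 (others up to 3691), Cacng2 at 643.3 (up to 383.5), Cacng3 at 282.9 (up to 272.9) and Cnih3 at 68.1 (up to 39.4). Another 6 transcripts were below the range, among them Gria4 NM_001113185 at 23.1 (others from 372.6) and Gria3 NM_032990 at 1052 (from 1726), and 3 were within it.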

How the results depend on the processing

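Over 17 alternatives, the 39 member effects gave 660 fits, of which 32 changed sign, all of them for effects that were not called. One limit is that Cnih2 was called near the threshold, in 8 of 17 alternatives, and Gria3 NM_001112742 in 12 of 17. The counts of Gria2, Gria3 and Gria4 transcripts depend on how shared reads were divided, and Cnih3 had few counts. Marker levels used as covariates can themselves respond to treatment. Where a call was lost, the cause was not tested, except that each series alone holds fewer animals.

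Percentages in brackets give the share of all transcripts called in the same fit. The 1 member called between PB and VEH (5.39%) became 0 with the fold limit (0.605%), no batch term (3.14%) and all 14 VEH animals (3%). It also became 0 with only the 2 groups compared (3.85%), animals 1 to 6 alone (0.488%) and animals 7 to 14 alone (4.09%). Covariates that made it 0 were choroid plexus (5.57%), pyramidal and granule neuron (0.72%) and interneuron markers (0.214%). With batch effects subtracted before DESeq2 it was 3 (8.29%). Between LEV and VEH the member count was 1 in animals 1 to 6 alone (Gria1, 2.64%) in place of 0 (0.00766%). Between PB and LEV the 1 member called (4.45%) became 0 with all 14 VEH animals (1.33%), animals 1 to 6 alone (0.618%) and animals 7 to 14 alone (1.01%). It also became 0 with counts summed per gene (4.79%) and with pyramidal and granule neuron (0.834%) or interneuron covariates (0.0766%). After subtraction it was 2 (8.41%). Between the code series the 6 (30.2%) became 0 with the fold limit (4.12%) and 3 with all 14 VEH animals, where that share was not counted. The 10 pathway transcripts between PB and VEH (5.39%) became 0 with the fold limit (0.605%) and 6 with no batch term (3.14%). They became 1 in animals 1 to 6 (0.488%) and 4 in animals 7 to 14 (4.09%). With the pyramidal and granule neuron covariate they were 0 (0.72%) and with the interneuron covariate 2 (0.214%). Between LEV and VEH they were 4 in animals 1 to 6 alone (2.64%) in place of 0 (0.00766%). Between PB and LEV the 7 became 0 with the fold limit, 4 with no batch term, 12 after subtraction, 4 with all 14 VEH animals, 0 in animals 1 to 6, 1 in animals 7 to 14, and 3, 1 and 3 with the pyramidal and granule neuron, interneuron and oligodendrocyte covariates. The 2 shares called became 0 in either series alone.

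Whether equal animal numbers mark littermates is not given by the labels. Same-numbered animals had correlations of residuals over 0.1 in 3 of 13 to 4 of 14 pairs after centring on treatment and code series. After centring on treatment alone, which keeps the code series difference, it was 6 of 13 to 8 of 14 pairs. Such correlations cannot decide whether the numbers pair the animals. With the animal number as a replicate block in place of the code series, 0 members were called between PB and VEH (3.42% of all transcripts). Between PB and LEV 4 pathway transcripts were called (3.5% of all transcripts), and no other count changed by over 1.5 times.

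When animals were left out singly, the counts ranged from 0 to 3 members between PB and VEH (3 without PB animal 12), 1 to 2 between PB and LEV, 3 to 7 between the series, 4 to 8 pathway transcripts between PB and LEV (4 without any of PB animals 2, 7, 10 or 11 or LEV animals 10 or 12) and 0 to 4 shares. The effects that changed sign ranged from -0.039 to 0.0078 (Gria2 NM_017261) and -0.031 to 0.016 (Gria4 NM_001113185) for PB against VEH. For LEV against VEH they ranged from -0.041 to 0.010 (Gria2 NM_001083811), -0.034 to 0.0025 (Gria3 NM_032990), -0.011 to 0.051 (Gria4 NM_001113185), -0.044 to 0.011 (Cacng2) and -0.0076 to 0.037 (Cacng8). For PB against LEV, Gria4 NM_001113185 ranged from -0.058 to 0.0027.

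Signs also changed under other settings. For PB against VEH, Gria2 NM_017261 was 0.061 and Gria4 NM_001113185 0.094 with all 14 VEH animals, 0.0022 and 0.028 in animals 1 to 6, and 0.0063 and 0.0032 with the choroid plexus covariate. Cacng2 was 0.024 in animals 7 to 14, and with the pyramidal and granule neuron covariate Cacng2 was 0.059 and Cacng8 0.014. For LEV against VEH with all 14 VEH animals, Gria2 NM_001083811 was 0.054, Gria2 NM_017261 0.043 and Gria3 NM_032990 0.033. In animals 1 to 6 Gria3 NM_032990 was 0.12. In animals 7 to 14 Gria1 was 0.013, Gria2 NM_017261 0.021, Gria4 NM_001113185 -0.033, Cacng2 0.042 and Cacng3 -0.067. With covariates, Cacng2 was 0.0062 (choroid plexus) and 0.030 (pyramidal and granule neurons) and Cacng8 -0.063 (oligodendrocytes). For PB against LEV, Gria1 was 0.034 in animals 1 to 6 and 0.022, 0.081 and 0.0073 with the pyramidal and granule neuron, interneuron and oligodendrocyte covariates. In animals 7 to 14 Gria2 NM_017261 was -0.041 and Gria3 NM_032990 0.0097, and in animals 1 to 6 Cnih3 was 0.15. With the pyramidal and granule neuron covariate Cacng2 was 0.029 and Cnih2 0.0008, and with the interneuron covariate Gria2 NM_017261 was -0.015 and Cnih3 0.012.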
